A study of Gallus gallus with 30 samples.

Results

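The 150 transcripts described here were those that stood lowest in chicken otocysts after 24 h of culture in DMSO, relative to every other kind of left otocyst in the series. For each of 28756 transcripts, A was the mean TPM (a transcript's share of the library, scaled for its length) of the 3 left otocysts kept in DMSO for 24 h. B was the lowest of 4 mean TPM values, those of the left otocysts kept in DMSO for 6 h and of the 3 kinds of untransfected left otocyst. Of the 10723 transcripts with B of at least 5 TPM, the 150 with the largest log2((B + 1)/(A + 1)) were taken as members. The members were thus chosen by the TPM of the 15 left otocysts. That value is called the loss. It ranged from 1.51 to 4.79 with a median of 1.78, while the median over all 10723 transcripts was -0.092. At the edge of the selection the losses ran on without a gap, with 1.50517 for the last member and 1.50438 for the first transcript left out. Everything stated about left otocysts is therefore a description of what was selected and carries no test. The right otocysts of the same embryos took no part in the selection, and the comparisons among them are tested. As their embryos are those whose left otocysts chose the members, they are not an independent set of embryos.

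The otocyst is the epithelial vesicle that forms the inner ear. Its epithelium lays down a matrix of collagens, laminins and fibrillins, signals through FGF, BMP, Wnt and Notch pathways, and sheds neuroblasts that become the neurons of the cochleovestibular ganglion. When a Notch ligand engages its receptor, γ-secretase frees the receptor's intracellular domain, which switches on repressors of the HES family and so holds neighbouring cells back from becoming neurons.

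RNA of single otocysts was sequenced from both ears of 15 White Leghorn chicken embryos, which gave 30 libraries in 10 groups of 3, each embryo being a separate animal. For Notch GOF, a plasmid driving NICD1 (the active intracellular domain of NOTCH1) with mRFP1 (a red fluorescent protein) was electroporated in ovo into the right ear of 6 embryos, and ears were collected after 6 h, labelled embryonic day 2.5, or after 24 h, labelled day 3. Control EP embryos received mRFP1 alone and were collected after 24 h, at day 3. For Notch LOF, both otocysts of 6 embryos aged day 2.5 floated in medium for 6 h or 24 h, the right one with 10 µM LY411575 (a γ-secretase inhibitor, GSI) and the left one with DMSO, the solvent. Left ears of electroporated embryos were untransfected. All otocysts were cleaned of mesenchyme. Electroporation reaches only part of the cells, and the strongly fluorescent ears were the ones sequenced. As only right otocysts were treated, side and treatment cannot be told apart. The 24 h cultured otocysts kept the label of their dissection age, day 2.5, so time, culture and the stage reached cannot be told apart either. 4 of the 6 inhibitor libraries carry a compound name whose last digits differ, and all 6 were taken as LY411575, the only inhibitor the protocol names.

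Library totals ran from 8749489 to 18224622 estimated counts, and the 6 libraries of 24 h culture differed from the others in more than the members. Their mean fragment length was 199 to 243 bases against 164 to 205 bases in the other 24 libraries, and they held 19055 to 21282 detected transcripts against 20121 to 22073. Their GSI libraries of embryos 32 and 34 had the longest fragments. The part of these differences in the loss was not tested. The label of otocyst epithelium was checked with CDH1, DLX5, SOHO-1, SOX10 and LMX1A. None of these 5 was at 0 in any group, but their summed TPM was 262 to 412.8 in the 24 h DMSO otocysts and 227 to 353 in the 24 h GSI otocysts, against 873 to 1065 in the 6 h DMSO otocysts. At day 3 in ovo it was 740 to 901 (NICD1 embryos) and 681 to 1104 (mRFP1 embryos) in untransfected otocysts. With mRFP1 it was 772 to 884, and with NICD1 392 to 840, which overlaps 24 h DMSO. Against day 3 in ovo on the right, SOX10 and DLX5 were called lower and the other 3 were not called. SOX10 is itself a member, so part of the fall on the left was set by the rule. It was at 70.9 to 114 TPM after 24 h in DMSO and at 340 to 438 TPM after 6 h. DLX5 alone, a homeobox gene of the dorsal otocyst, stood at 30.9 to 32.6 TPM after 24 h in DMSO and at 106 to 131 TPM after 6 h. The 4 neuroblast markers NEUROD1, NHLH1, DLL1 and RTN1 summed to 565 to 701 TPM after 24 h in DMSO against 132 to 185 TPM after 6 h. Most of that sum was NHLH1, at 302 to 499.6 TPM against 13.8 to 29.5 TPM, whereas DLL1 overlapped, at 21.4 to 25.8 and 13.1 to 25.9 TPM. Of 10 mesenchyme markers 7 were found, and they summed to 189 to 299 TPM after 24 h in DMSO and 207 to 302 TPM after 6 h, ranges that overlap. The single markers went both ways. ZEB1 was at 22.4 to 40.9 TPM after 24 h and 5.60 to 8.53 TPM after 6 h, SCX at 16.2 to 34.5 and 3.67 to 5.74 TPM, and TAGLN at 9.55 to 34.9 and 1.30 to 2.35 TPM, while COL1A2 was at 20.8 to 34.9 and 77.2 to 83.8 TPM. Between right otocysts of 24 h and 6 h, ZEB1, SCX and TAGLN were called higher and COL1A2 and LUM lower. The 7 summed to 184 to 222 TPM in the 6 h untransfected otocysts. In those of day 3 they summed to 390 to 539 TPM (NICD1 embryos) and 299 to 567 TPM (mRFP1 embryos). Against day 3 in ovo on the right, COL1A2, ACTA2, DCN and LUM were called lower and ZEB1 and SCX higher (median log2 fold change -1.55). The endothelial marker FLT4, 1 of 2 looked for, was at 3.43 to 7.17 TPM after 24 h in DMSO and 11.7 to 14.2 TPM after 6 h, and on the right it was called lower at 24 h than at 6 h and than at day 3 in ovo. The part of these cell type shifts in the loss was not tested. In whole otocysts, fewer cells of a type and less RNA per cell cannot be told apart.

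As a group, the members held a small and steady share of the transcriptome everywhere except after 24 h in culture. On the left the rule had asked for this. Their summed TPM was 1489 to 2051 in the 3 otocysts kept in DMSO for 24 h and 1142 to 1499 in the 3 kept with the GSI for 24 h. In the other 24 libraries it was 5920 to 9157. No otocyst of another group came near the 6 cultured for 24 h. The median member stood at 19.2 TPM in the lowest of the 4 reference groups and at 4.14 TPM after 24 h in DMSO. 8 members had a mean of 0 TPM after 24 h in DMSO, and 25 had a mean under 1 TPM.

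**Figure D1:**
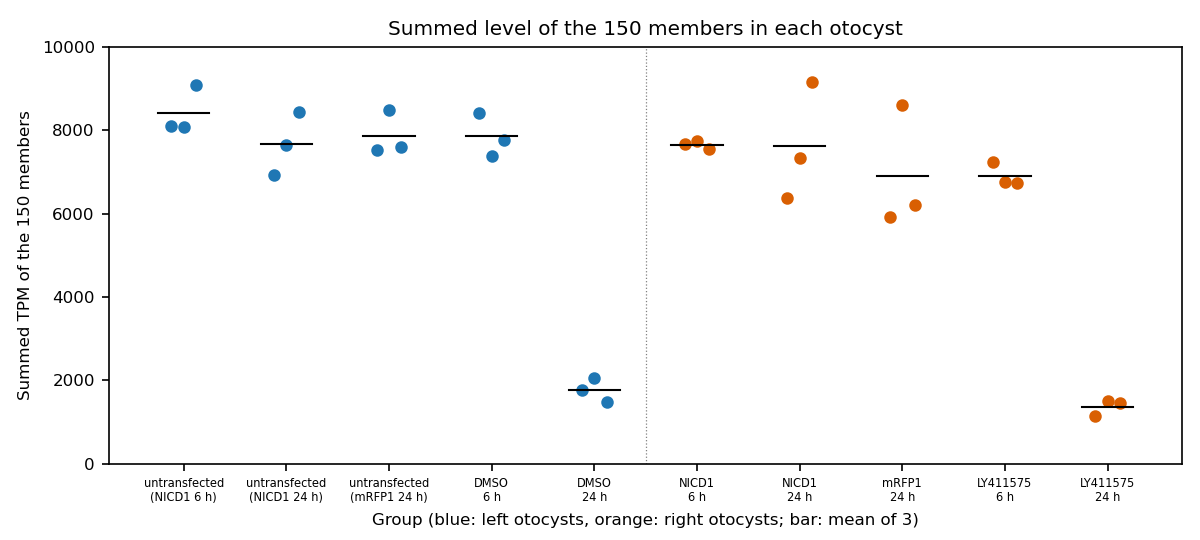
Summed TPM of the 150 members (vertical axis, from 0) in each of the 30 otocysts, by group, with left otocysts in blue, right otocysts in orange and the mean of 3 as a bar. The 6 otocysts cultured for 24 h lie between 1142 and 2051 TPM, below the 5920 to 9157 TPM of the other 24.

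In left otocysts the rule asked for a low level at 24 h of culture and a higher one at 6 h and in ovo. The ratios below describe members chosen in that way. Among left otocysts, the 6 h DMSO level of the members was close to the untransfected level of the same labelled age, with a median log2 ratio of -0.17 on the scale with 1 TPM added. Only 5 members were lower there by more than 1 on that scale, and 5 were higher by more than 1. From the 6 h to the 24 h untransfected otocysts, collected in ovo, the median log2 ratio was -0.12, and 0 members were lower by more than 1. The 6 h DMSO otocysts were the lowest of the 4 reference groups for 49 members, compared with 34.4% of all transcripts with B of at least 5 TPM. In 127 of the 150 members each 24 h DMSO otocyst lay below all 12 other left otocysts. The same held for 16% of all transcripts with B of at least 5 TPM, and as these are the values that chose the members nothing is read from it.

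A gene symbol was at hand for 21 of the 150 members, which is 14%, and for 6.23% of transcripts with B of at least 5 TPM. Symbols came from supplementary tables of transcripts listed as changed in some experiment, so the named members are not a neutral sample. By role they were matrix and secreted proteins (COL2A1, COL9A2, COL18A1, FBN3, ANOS1, BMPER), ligands and receptors (FGF10, FGF20, CALCA, ERBB3), transcription factors (SOX10, HES5), cell cycle proteins (CDK6, KIF15), epithelial proteins (CLDN3, KRT24, AGR3, SLC39A8) and others (BZW2, RTN4, PCP4). All values below are levels per transcript, in TPM, which is scaled for transcript length.

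After 24 h in DMSO the matrix members stood at a small part of their 6 h DMSO level, as the rule asked. In ovo, some electroporated otocysts were as low. COL2A1 encodes the fibrillar collagen of cartilage, which embryonic otic epithelium also makes. Its level in the 24 h DMSO otocysts was 33.9, 46.9 and 44.5 TPM, against 259, 241 and 248 TPM after 6 h in DMSO. The 9 untransfected otocysts ranged from 110 to 351 TPM with a median of 224 TPM. All 3 otocysts of 24 h DMSO thus lay below every other left otocyst. On the right, COL2A1 was at 16.8, 11.1 and 33.8 TPM after 24 h of GSI and at 258, 229 and 237 TPM after 6 h. In electroporated ears it spread from 34.7 to 231 TPM (median 145 TPM), and the lowest of them, at 34.7 and 42.7 TPM with mRFP1, lay within the range of the 24 h DMSO otocysts.

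COL9A2, a chain of the collagen IX that coats collagen II fibrils, stood at 19.0, 26.1 and 21.9 TPM after 24 h in DMSO and at 130, 109 and 139 TPM after 6 h. With the GSI it was at 8.65, 17.1 and 14.0 TPM after 24 h and at 131, 127 and 147 TPM after 6 h. Untransfected otocysts held 76.6 to 190 TPM and electroporated ones 50.5 to 146 TPM. The 6 otocysts of 24 h culture were separate from all 24 others. COL18A1, a basement membrane collagen, had a mean of 26.4 TPM (SD 6.25, n = 3) after 24 h in DMSO and 149 TPM (SD 17.2, n = 3) after 6 h. Its electroporated otocysts ranged from 23.5 to 173 TPM, so the lowest lay below the 24 h DMSO mean.

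FBN3, a fibrillin of extracellular microfibrils, had 2.60, 5.17 and 4.28 TPM after 24 h in DMSO and 32.9, 25.6 and 29.3 TPM after 6 h. On the GSI side it had 1.02, 1.34 and 2.62 TPM after 24 h and 30.8, 28.4 and 37.2 TPM after 6 h. Untransfected ears ranged from 22.5 to 59.6 TPM, and electroporated ears from 6.11 to 76.98 TPM. The ranges did not overlap, although the lowest electroporated ear, of the mRFP1 group, was nearer to the cultured otocysts than to its own group's highest. ANOS1, a secreted matrix glycoprotein whose human form is mutated in Kallmann syndrome, was at 2.29, 4.00 and 2.16 TPM after 24 h in DMSO and at 19.4, 20.3 and 17.4 TPM after 6 h. With the GSI it was at 0.479, 1.34 and 0.486 TPM after 24 h and at 11.1, 13.5 and 14.6 TPM after 6 h. Its untransfected range was 9.24 to 19.98 TPM and its electroporated range 4.82 to 18.4 TPM, both above the 24 h cultures. BMPER, a secreted regulator of BMP signalling, averaged 6.56 TPM (SD 2.79, n = 3) after 24 h in DMSO and 26.4 TPM (SD 6.10, n = 3) after 6 h. Its 24 h DMSO mean lay within the electroporated range of 4.70 to 37.9 TPM (median 8.78 TPM). Untransfected otocysts had 15.7 to 46.9 TPM.

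2 FGF ligands were members. FGF10, which in the mouse acts in semicircular canal and vestibular development, was at 11.8, 17.1 and 8.78 TPM after 24 h in DMSO and at 84.8, 66.2 and 75.3 TPM after 6 h. Under the GSI it was at 1.33, 9.36 and 4.16 TPM after 24 h and at 29.7, 37.2 and 40.2 TPM after 6 h. In ovo it ranged from 63.3 to 126 TPM in untransfected and from 32.5 to 148 TPM in electroporated otocysts. The groups of 24 h culture overlapped each other and no other group. In its order of levels, the 6 h GSI otocysts came next above them.

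FGF20, which in the mouse takes part in the differentiation of the organ of Corti, was low throughout. It had 0.308, 1.21 and 0.323 TPM after 24 h in DMSO and 14.7, 12.6 and 10.1 TPM after 6 h. With the GSI it was listed at 0, 0.402 and 0 TPM after 24 h and at 5.71, 3.51 and 4.77 TPM after 6 h. Untransfected otocysts had 2.67 to 28.8 TPM, with the highest in embryo 4, and electroporated ones 1.90 to 16.5 TPM. The 24 h cultures lay below all other otocysts, at very few reads. Of the remaining signalling members, ERBB3, a receptor of the neuregulin system, averaged 1.78 TPM (SD 0.611, n = 3) after 24 h in DMSO and 11.7 TPM (SD 1.14, n = 3) after 6 h. CALCA, the gene of calcitonin and of the neuropeptide CGRP, averaged 36.1 TPM (SD 19.5, n = 3) and 113 TPM (SD 23.4, n = 3) in the same groups. For ERBB3 the electroporated otocysts ranged from 1.75 to 12.2 TPM, so the lowest lay below its 24 h DMSO mean.

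SOX10, a transcription factor of the neural crest and otic epithelium, came second to PCP4 in level among the named members after 6 h in DMSO. It stood at 114, 112 and 70.9 TPM after 24 h in DMSO and at 400, 340 and 438 TPM after 6 h. In GSI otocysts it stood at 54.1, 54.2 and 82.7 TPM after 24 h and at 392, 343 and 435 TPM after 6 h. Untransfected ears held 253 to 408 TPM and electroporated ears 140 to 452 TPM. No 24 h cultured otocyst reached the lowest of the others. SOX10 is also a marker in the otic epithelium list above, and after 6 h in DMSO the most abundant of its 5 genes.

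HES5, the repressor that Notch switches on, belonged to the last ranks of the selection. Its level was 13.7, 17.2 and 8.39 TPM after 24 h in DMSO and 104, 70.6 and 49.4 TPM after 6 h. In the GSI otocysts it was 0.883, 0.363 and 0.600 TPM after 24 h and 0.204, 0 and 0.0949 TPM after 6 h. Untransfected otocysts ranged from 20.6 to 94.6 TPM and electroporated ones from 26.4 to 163 TPM. HES5 was thus lower in all 6 GSI otocysts than in any other library, and lower in the 24 h DMSO otocysts than in any in ovo otocyst. Chicken has several HES5 genes, and reads of this transcript were shared with others in 26 of the 30 libraries, so its level is uncertain.

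Of the cell cycle members, CDK6, a kinase that drives cells out of G1, was at 2.35, 2.85 and 3.06 TPM after 24 h in DMSO and at 14.4, 15.5 and 13.5 TPM after 6 h. With the GSI it was at 1.14, 1.53 and 0.889 TPM after 24 h and at 9.07, 11.2 and 9.38 TPM after 6 h. In ovo it was at 10.9 to 20.1 TPM in untransfected and 11.3 to 22.4 TPM in electroporated otocysts. The order of levels was 24 h GSI, 24 h DMSO, 6 h GSI and then the other groups. Between these steps only the 6 h GSI range met a neighbour, the lowest in ovo otocysts.

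KIF15, a mitotic spindle kinesin, was at 11.1, 12.4 and 10.8 TPM after 24 h in DMSO and at 40.4, 46.4 and 44.8 TPM after 6 h. The GSI otocysts had 4.62, 9.20 and 5.30 TPM after 24 h and 35.7, 35.8 and 39.0 TPM after 6 h. Untransfected ears had 38.8 to 65.3 TPM and electroporated ears 23.1 to 71.4 TPM. All 6 otocysts of 24 h culture lay under the lowest of the rest.

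AGR3, a secretory pathway protein of epithelia, was the most abundant of the epithelial members. It had 68.1, 57.4 and 46.3 TPM after 24 h in DMSO and 277, 208 and 192 TPM after 6 h. GSI otocysts had 21.4, 29.3 and 32.7 TPM after 24 h and 171, 196 and 166 TPM after 6 h. The in ovo ranges were 233 to 295 TPM in untransfected and 189 to 421 TPM in electroporated otocysts. The 24 h cultures were separate from the rest, and the GSI side lay below the DMSO side. KRT24, a keratin of epithelial intermediate filaments, averaged 41.0 TPM (SD 12.9, n = 3) after 24 h in DMSO and 149.8 TPM (SD 29.5, n = 3) after 6 h. CLDN3, a tight junction protein, averaged 26.6 TPM (SD 10.9, n = 3) and 94.8 TPM (SD 14.7, n = 3) in these groups, and the zinc transporter SLC39A8 averaged 1.87 TPM (SD 0.504, n = 3) and 8.53 TPM (SD 0.819, n = 3).

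BZW2, of a protein family that regulates translation initiation, had the largest loss of the named members. It was listed at 0 TPM in all 3 otocysts kept in DMSO for 24 h and at 5.38, 29.4 and 62.5 TPM after 6 h. It had 0 counts, rounded to whole numbers here and below, in all 6 GSI otocysts, at either time. In ovo it ranged from 13.0 to 70.1 TPM in untransfected and from 24.7 to 78.2 TPM in electroporated otocysts. Against a floor of 3 counts over the group, it was at least 387-fold lower after 24 h than after 6 h in DMSO. It shared reads with other transcripts in 23 libraries, so a move of reads to another transcript of the gene cannot be told apart from a loss of the gene's RNA. PCP4, a small regulator of calmodulin, was the most abundant named member and averaged 246 TPM (SD 30.1, n = 3) after 24 h in DMSO against 826 TPM (SD 84.4, n = 3) after 6 h. RTN4, a membrane protein of the endoplasmic reticulum, averaged 1.46 TPM (SD 0.0941, n = 3) and 6.64 TPM (SD 2.17, n = 3).

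**Figure D2:**
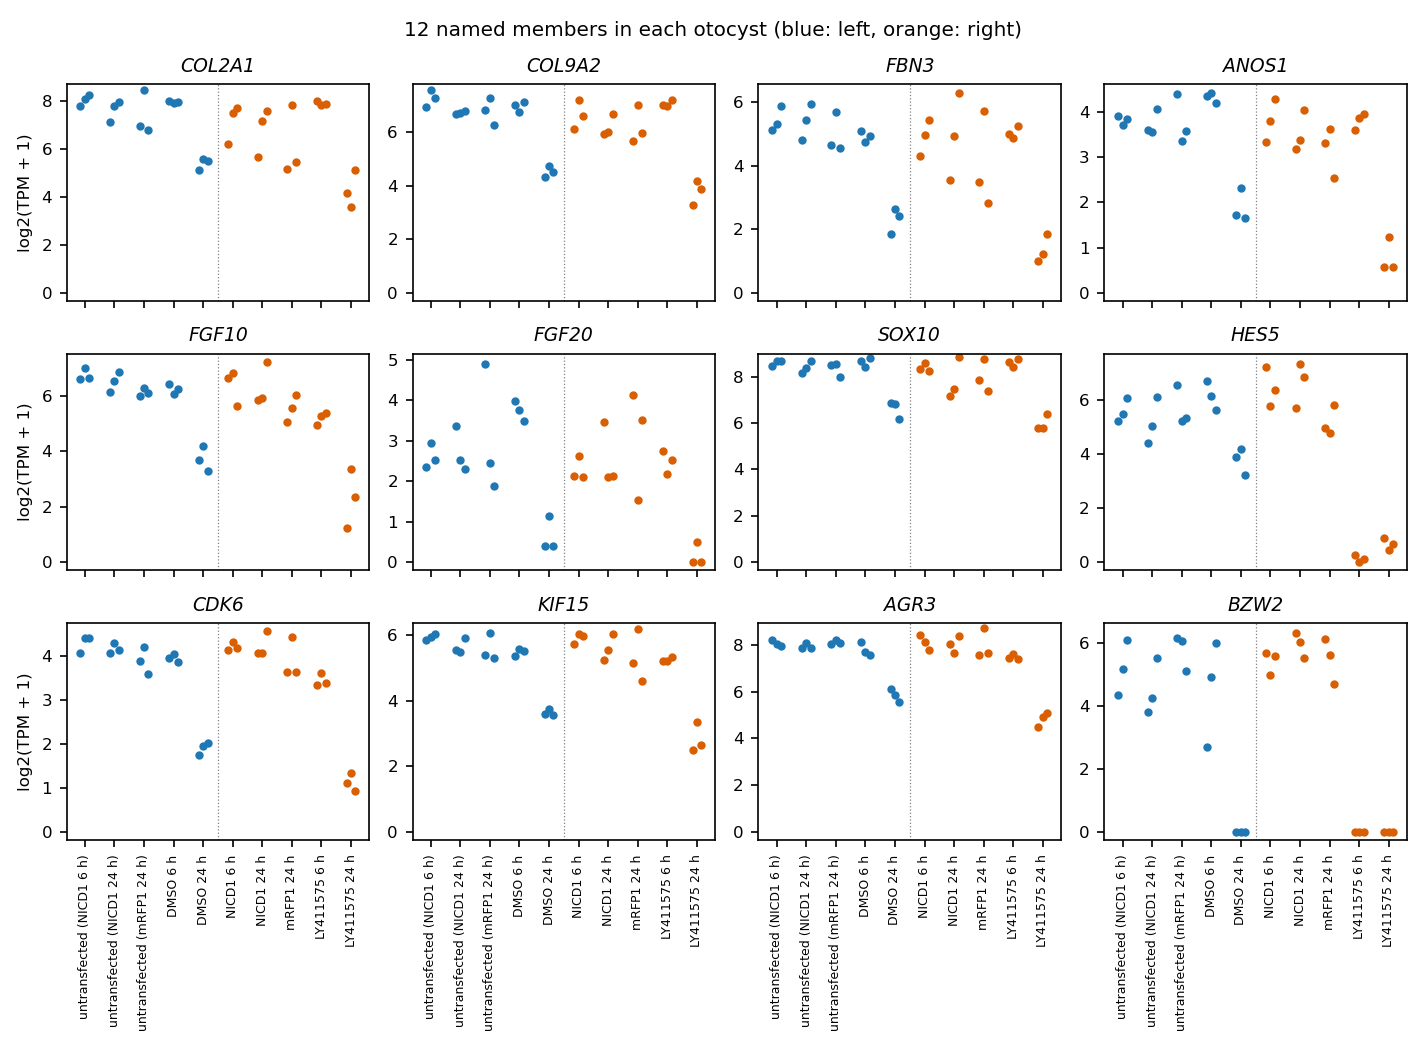
Level of 12 named members as log2(TPM + 1) in each of the 30 otocysts, by group, with left otocysts in blue and right otocysts in orange. In 9 panels the 24 h DMSO and 24 h LY411575 otocysts lie below all other groups. For COL2A1 the 24 h DMSO otocysts overlap the lower mRFP1 otocysts, and for HES5 and BZW2 the 6 h LY411575 otocysts are as low as the 24 h ones.

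The transcripts with the largest losses were not all steady elsewhere. ENSGALT00000056825.2, which the study's tables do not name, had the largest loss of all. It stood at 3.12, 0.905 and 0.854 TPM after 24 h in DMSO, but after 6 h at 0 TPM in embryo 1 and at 75.1 and 158 TPM in the others. Untransfected otocysts ranged from 9.56 to 223 TPM. ENSGALT00000089530.2, of rank 3, was listed at 0 TPM in all 3 otocysts of 24 h DMSO and ranged from 2.88 to 47.0 TPM in untransfected ones. Of the 150 members, 15 fell under 1 TPM in at least 1 of the 12 other left otocysts.

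Length did not set the members apart, with a median of 2004 bases against 2153 bases over all transcripts with B of at least 5 TPM. Shared reads were found for 76% of members in at least 1 library and for 61.2% of those transcripts. Among named members, RTN4 and CALCA shared reads in 30 libraries, CDK6, ANOS1 and CLDN3 in 29, FGF10 in 28 and KRT24 in 27. COL2A1, COL9A2, COL18A1, FBN3, FGF20, KIF15, AGR3, BMPER, ERBB3 and PCP4 showed none by this measure. For members that share reads, a move of reads between transcripts cannot be told apart from a change of level. 3 members had identical values in every library and count as 1 measurement.

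The right otocysts, which the rule did not use, were compared first between 24 h and 6 h of culture, both with the GSI. The collagens, the FGF ligands, SOX10, the cell cycle members and most epithelial members were again lower at 24 h. Of the 150 members 91 were called lower and 0 higher (edgeR, adjusted p below 0.05 over 20326 transcripts, 3 otocysts per group). At an unadjusted p below 0.05 the counts were 116 lower and 1 higher. Over all transcripts tested 10.7% were called lower and 12.2% higher, and over those with B of at least 5 TPM 14.8% and 17%. The median log2 fold change of the members was -2.21, beside -0.018 over transcripts with B of at least 5 TPM. Of the 21 named members 16 were called lower, and RTN4, BMPER, CLDN3, HES5 and BZW2 were not, with BZW2 at 0 counts in both groups and HES5 below 1 TPM in all 6 otocysts. Without the GSI otocysts of embryos 32 and 34, a check added after their fragment lengths were seen, 63 members were called lower. That check leaves 1 otocyst in the 24 h GSI group, which is assumed to vary like the other groups, so its count of calls says nothing about fragment length.

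COL9A2 was lower at 24 h than at 6 h by -3.05 on the log2 scale (SE 0.33, edgeR adjusted p = 8.46e-05). COL2A1 differed by -3.23 (SE 0.68, adjusted p = 0.00482), FBN3 by -3.96 (SE 0.77, adjusted p = 0.00308) and ANOS1 by -3.77 (SE 0.44, adjusted p = 0.00013). These 4 matrix members had no overlap between the 24 h and 6 h otocysts. FGF10 differed by -2.56 (SE 0.60, adjusted p = 0.00869). For FGF20, 6 counts in all at 24 h stood against 150 at 6 h, a 28.4-fold ratio with a 95% counting interval of 13.0 to 77.4. SOX10 differed by -2.30 (SE 0.36, adjusted p = 0.000829), CDK6 by -2.73 (SE 0.22, adjusted p = 1.31e-05), KIF15 by -2.22 (SE 0.30, adjusted p = 0.000304) and AGR3 by -2.43 (SE 0.29, adjusted p = 0.000157). With the 1 otocyst of embryo 33 alone as the 24 h GSI group, FGF10, FGF20, FBN3, COL2A1, COL18A1, ERBB3, CALCA and KRT24 no longer passed, at adjusted p from 0.0525 to 0.179. The difference was then -4.31 for FBN3, -4.17 for COL2A1, -3.49 for COL18A1 (beside -2.46) and -4.11 for ERBB3 (beside -3.19), each larger than with all 3 otocysts. It was -2.002 for CALCA (beside -2.22), -1.35 for KRT24 (beside -1.41) and -1.66 for FGF10. COL18A1 was also lost without embryo 32 alone (adjusted p = 0.0836) and without embryo 33 alone (adjusted p = 0.0706).

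The second comparison set the 24 h GSI otocysts against the 6 electroporated right otocysts of day 3, which had stayed in the embryo. The reference was the average of the NICD1 and mRFP1 groups. Effects of the GSI and of NICD1 thus cannot be told apart from that of culture here. Matrix, signalling, cell cycle and epithelial members were lower in culture here too. Called lower were 116 members and higher 0, with 124 and 0 at an unadjusted p below 0.05, where 15.5% of all transcripts and 23% of those with B of at least 5 TPM were called lower, and 15% and 17.8% higher. The members' median log2 fold change was -2.49, against -0.11 over transcripts with B of at least 5 TPM, and 149 of the 150 had a negative value. 19 of the 21 named members were called lower. CLDN3 differed by -0.65 (SE 0.52, adjusted p = 0.383) and BMPER by -0.56 (SE 0.71, adjusted p = 0.599). CDK6 was again among the most clearly separated, at -3.70 (SE 0.21, adjusted p = 4.5e-07), though it shared reads in 29 libraries. With embryos 32 and 34 left out, which again leaves 1 otocyst of 24 h GSI, 81 members were called lower, and RTN4, FBN3, ERBB3, FGF20, COL2A1 and COL18A1 did not pass, at adjusted p from 0.0585 to 0.121. Their differences were then -4.35 for FBN3 (beside -4.04), -3.18 for ERBB3 (beside -2.30), -3.28 for COL2A1 (beside -2.37), -2.80 for COL18A1 (beside -1.80) and -2.68 for RTN4 (beside -3.13). COL18A1 lost its call on leaving out any of embryos 21, 22, 23, 32 and 33, at adjusted p of up to 0.152. COL2A1 and ERBB3 lost theirs without embryo 32, at adjusted p = 0.0515 and 0.0523.

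After 6 h of GSI culture, by contrast with the 24 h comparisons, few members stood apart from the right NICD1 otocysts collected at 6 h. Among members 14 were called lower and 1 higher, with 25 and 3 at an unadjusted p below 0.05, where 5.3% of all transcripts and 9.32% of those with B of at least 5 TPM were called lower, and 3.56% and 4.39% higher. The share of members called lower, 9.33%, was close to that of the transcripts they were drawn from. Their median log2 fold change was -0.38, against -0.12 over those transcripts. The named members called lower were BZW2, HES5, KRT24 and CDK6. Effects of the GSI and of NICD1 cannot be told apart from that of culture in this comparison either. KRT24 differed by -1.29 (SE 0.23, adjusted p = 0.00551) and CDK6 by -0.999 (SE 0.20, adjusted p = 0.0103). Without embryo 1 these calls were lost, at adjusted p = 0.0521 and 0.0962, and that of CDK6 also without embryo 5 (0.0911) and without embryo 12 (0.0504). COL2A1 (0.48, SE 0.62, adjusted p = 0.719) and SOX10 (0.04, SE 0.34, adjusted p = 0.972) did not pass. The count of members called lower was 6 to 10 on leaving out any 1 embryo.

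**Figure D3:**
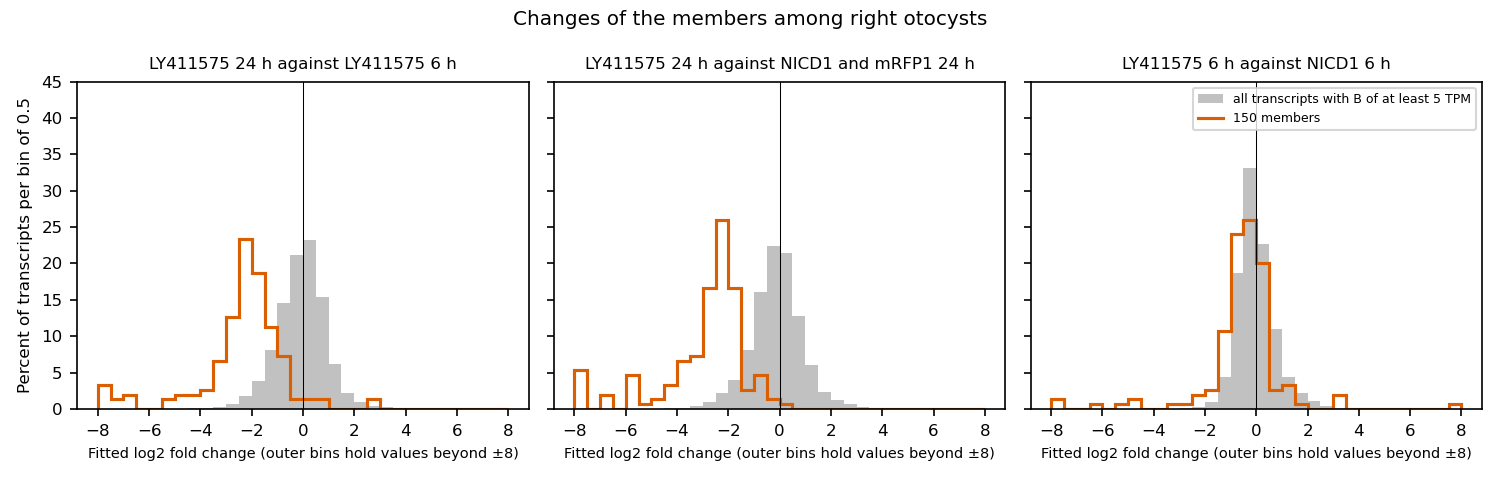
Distribution of edgeR log2 fold changes (horizontal axis, bins of 0.5) as percent of transcripts, for the 150 members (orange line) and all transcripts with B of at least 5 TPM (grey), in 3 comparisons among right otocysts. The members' medians are -2.21 and -2.49 in the 2 comparisons of 24 h culture and -0.38 after 6 h.

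Within right otocysts the rule's own measure, with 24 h GSI as A and the other 4 right groups as B, had a median of 1.78 over the members and -0.15 over transcripts with B of at least 5 TPM. It was above 1 for 125 members, compared with 8.31% of those transcripts. In 92 members every 24 h GSI otocyst lay below all 12 other right otocysts, where the share over those transcripts was 13.4%. All right otocysts in culture carried the GSI, so these comparisons hold culture and GSI together against time or against in ovo growth with a NICD1 or mRFP1 plasmid.

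Around the members, lists of related genes were followed in the same right otocysts. They were drawn from the study's tables of changed genes in these and related samples and are not independent evidence of their direction. Beside the medians below, all transcripts tested had a median log2 fold change of -0.11 between 24 h and 6 h and of -0.098 between 24 h culture and day 3. Between 24 h and 6 h, 10.7% of them were called lower and 12.2% higher (14.8% and 17% with B of at least 5 TPM). Against day 3 these shares were 15.5% and 15% (23% and 17.8%). For 6 h culture against in ovo they were 5.3% and 3.56% (9.32% and 4.39%). Of 21 extracellular matrix genes, 4 of them members, 16 were called lower and 0 higher at 24 h than at 6 h of GSI culture (median -1.77), among them the other chains of collagen IX, COL9A1 and COL9A3, and the laminin chains LAMA1 and LAMC1. Against day 3 in ovo 15 were called lower (median -1.55). Of 23 genes of DNA replication and the cell cycle, with KIF15 as the only member, 15 were called lower and 1 higher at 24 h than at 6 h (median -0.92), and 22 were lower than in ovo at day 3 (median -2.25). Here 16 were already lower after 6 h of culture, including the helicase subunits MCM2, MCM3, MCM4 and MCM6. Of 11 Notch pathway genes 4 were lower and 0 higher at 24 h than at 6 h (median -1.32), including the receptor NOTCH1 and the ligand DLL1. HES5, the only member in that list, was not called. DLL1 fell from a 6 h level that was higher with the GSI, at 45.3 to 59.5 TPM against 13.1 to 25.9 TPM in DMSO. In DMSO its 24 h range, 21.4 to 25.8 TPM, overlapped that of 6 h. Of 16 FGF and BMP genes, with FGF10, FGF20 and BMPER as members, 4 were lower and 3 higher (median -0.70), and FGF3 was among the higher ones. Of 19 transcripts of 15 neurogenesis genes 2 were lower and 11 higher (median 1.69). The higher ones included NHLH1, TUBB2B and several transcripts of STMN1, so they stand for fewer genes. No member belonged to that list. The 5 otic epithelium markers were all called lower at 24 h than at 6 h, and SOX10 and DLX5 were lower than at day 3 in ovo. The wider list of 20 transcripts of otic patterning transcription factors, which holds SOX10 and all of these markers but CDH1, went both ways. At 24 h against 6 h 9 were called lower and 5 higher (median -0.89). The higher ones were EBF2, MEIS1, TLX1 and, counted more than once, EBF3. Against day 3 in ovo 6 were lower and 8 higher (median 0.18). Of 19 Wnt pathway genes, none of them a member, 7 were lower and 2 higher at 24 h than at 6 h (median -1.15), and 4 were lower and 4 higher than at day 3 (median -0.37).

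The effect of LY411575 on the members was read between the ears of each embryo, in a fit of all 30 libraries with a term for each embryo. Its DMSO otocysts are those that the rule used, low values at 24 h and high values at 6 h being what was asked for, so calls here are given as a description.

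After 6 h of GSI few members were called. Called lower by edgeR were 3 and higher 0 (9 lower in DESeq2), with 14 and 0 at an unadjusted p below 0.05, where 0.037% of all transcripts were called lower and 0.0416% higher. Over transcripts with B of at least 5 TPM the shares were 0.0653% and 0.084%. The members' median log2 fold change was -0.20, beside 0.0043 over those transcripts, and 103 of the 150 had a negative value. In TPM, 40 members were lower and 18 higher in all 3 pairs, against 16% and 19.2% of those transcripts. The 3 members called were HES5, BZW2 and ENSGALT00000035200.5, a transcript that the study's tables give no symbol and that is named here after its values were seen. HES5 had 3 counts in the 3 GSI otocysts against 2125 in the DMSO otocysts, which is 724-fold lower with a 95% counting interval of 248 to 3509. BZW2 had 0 against 973 counts, at least 331-fold lower against the floor, but 669 of the 973 came from a single otocyst and the call was lost without embryo 3 (adjusted p = 0.107) or embryo 5 (adjusted p = 0.143). ENSGALT00000035200.5 stood at 1.85, 2.37 and 2.89 TPM with the GSI and at 177, 161 and 115 TPM in DMSO, which is -5.97 on the log2 scale (SE 0.47, adjusted p = 8.86e-05). In all 3 pairs the GSI side was lower for each of these 3 members, and ENSGALT00000035200.5 shared reads in 27 libraries. With limma-voom, HES5 (adjusted p = 0.606) and BZW2 (0.627) did not pass. FGF10 (-1.09, SE 0.36) and FGF20 (-1.43, SE 0.60) were also lower on the GSI side but did not pass, at adjusted p = 1. Collagen members differed by less than their standard errors between the ears, with log2 fold changes of -0.05 (SE 0.29) for COL2A1 and 0.10 (SE 0.16) for COL9A2.

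After 24 h a minority of members, already low in DMSO, stood lower still with the GSI. Called lower were 11 and called higher 3, with 43 and 10 at an unadjusted p below 0.05, where 1.85% of all transcripts were called lower and 1.55% higher. Over transcripts with B of at least 5 TPM the shares were 3.23% and 3.04%. The median log2 fold change was -0.35. In TPM, 44 members were lower in all 3 pairs and 11 were higher in all 3, against 24.6% and 12.7% of transcripts with B of at least 5 TPM. The count called lower rested on single embryos, with 4 without embryo 32 and 22 without embryo 33, and was 6 without the embryo term. The count called higher was 0 without embryo 32 and 10 without embryo 33. In embryos 32 and 34 the GSI library had longer fragments than its DMSO partner, at 232 against 201 and 243 against 199 bases. In embryo 33 it had shorter ones, at 205 against 219 bases. The part of fragment length in these GSI differences was not tested.

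The named members called lower after 24 h of GSI were HES5, ANOS1, CDK6, KIF15 and AGR3. HES5 differed by -4.30 on the log2 scale (SE 0.64, adjusted p = 0.00804), ANOS1 by -1.86 (SE 0.28, adjusted p = 0.00805) and CDK6 by -1.09 (SE 0.17, adjusted p = 0.00819). KIF15 differed by -0.78 (SE 0.13, adjusted p = 0.0112) and AGR3 by -0.96 (SE 0.24, adjusted p = 0.0496). For each of these 5 the GSI otocyst was lower in 3 of 3 embryos. Without embryo 32 the calls of ANOS1 (adjusted p = 0.0642) and KIF15 (0.0967) were lost, and KIF15 did not pass without the embryo term either (0.144). AGR3 lost its call on leaving out any of embryos 32, 33 and 34 (adjusted p = 0.324, 0.0704 and 0.0513), with median-of-ratios scaling (0.0516) and with no filter on low counts (0.0599). HES5 and CDK6 kept theirs on leaving out any 1 embryo, at adjusted p of up to 0.0438 and 0.0356. With limma-voom in place of edgeR, HES5 (adjusted p = 0.159), ANOS1 (0.0931) and AGR3 (0.103) did not pass. COL9A2 just missed the threshold at -0.67 (SE 0.17, adjusted p = 0.0502), FGF10 reached -1.49 (SE 0.39, adjusted p = 0.0597) and FBN3 -1.21 (SE 0.33, adjusted p = 0.069). SOX10 differed by -0.52 (SE 0.25, adjusted p = 0.319). ENSGALT00000035200.5 was lower again, at 1.35, 1.25 and 0.730 TPM against 16.5, 24.7 and 8.24 TPM in DMSO (-3.77, SE 0.49, adjusted p = 0.00485).

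With NICD1 no member passed the threshold at either time, though HES5 was higher on the NICD1 side in every pair. After 6 h 0 members were called in either direction (edgeR; 0% of all transcripts; 8 lower and 1 higher at an unadjusted p below 0.05), and DESeq2 called 1 lower and 1 higher. After 24 h 0 were called (0% of all transcripts; 6 lower and 5 higher unadjusted), and DESeq2 called 0 lower and 1 higher. The median log2 fold change of the members was -0.093 after 6 h and -0.0064 after 24 h. The untransfected otocysts of these embryos are also among the libraries that the rule used. In TPM, 51 members were lower and 12 higher in all 3 pairs after 6 h, against 17.5% and 13.3% of transcripts with B of at least 5 TPM. The share of members lower was thus above that of those transcripts, and the share higher below it. After 24 h 19 were lower and 12 higher, against 15.6% and 6.46%. HES5 was at 150, 54.6 and 81.5 TPM in NICD1 otocysts after 6 h and at 37.0, 43.5 and 66.7 TPM in their left partners. After 24 h it was at 51.0, 163 and 115 TPM against 20.6, 32.0 and 68.1 TPM. The NICD1 side was higher in all 3 pairs at both times, with log2 fold changes of 0.91 (SE 0.47) and 1.53 (SE 0.47) that did not pass, at adjusted p = 1. ENSGALT00000092788.1, with no symbol in the study's tables and named after its values were seen, came nearest to the threshold. It stood at 49.6, 34.7 and 95.4 TPM with NICD1 after 6 h, against 12.0, 10.8 and 17.5 TPM in the left partners (2.11, SE 0.27, adjusted p = 0.0747). After 24 h it stood at 26.0, 61.1 and 101 TPM against 11.9, 7.61 and 17.8 TPM (2.28, SE 0.28, adjusted p = 0.0501). NICD1 ranges lay above those of the left partners at both times. In 24 h culture it was at 0.383, 0.556 and 1.70 TPM in DMSO. This transcript shared reads in all 30 libraries. The NICD1 plasmid carries chicken NOTCH1 sequence, and whether reads of the plasmid were counted in this transcript was not tested.

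In control EP, 0 members were called by edgeR (0% of all transcripts; 13 lower and 2 higher at an unadjusted p below 0.05), while DESeq2 called 4 lower and 0 higher. Their median log2 fold change was -0.12. The mRFP1 side was lower in all 3 pairs for 45 members and higher for 2, against 30.8% and 8.4% of transcripts with B of at least 5 TPM. The share of members that were lower was thus close to that of those transcripts, while the share that were higher was below theirs. Here too the left partners are among the libraries that the rule used. COL2A1 was at 34.7, 231 and 42.7 TPM in the mRFP1 otocysts of embryos 4, 23 and 24 and at 125, 351 and 110 TPM in their left partners (-1.06, SE 0.30, adjusted p = 0.403).

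Differences between treatments come from the same fit and, as it holds the left otocysts that chose the members, are given as a description too. Between the GSI effects at 24 h and at 6 h, 1 member was called lower and 1 higher, where 0.0786% and 0.0324% of all transcripts, and 0.14% and 0.056% of those with B of at least 5 TPM, were called. For NICD1 at 24 h against 6 h 0 members were called (edgeR; 0 lower and 2 higher at an unadjusted p below 0.05; 0 in DESeq2). Between NICD1 and mRFP1 at 24 h 1 member, ENSGALT00000092788.1, was called higher and 0 lower, where 0.00462% of all transcripts and 0.00933% of those with B of at least 5 TPM were called higher. It stood at 2.59, 8.58 and 1.13 TPM with mRFP1 and at 8.52, 14.9 and 4.28 TPM in the left partners of those otocysts.

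**Figure D4:**
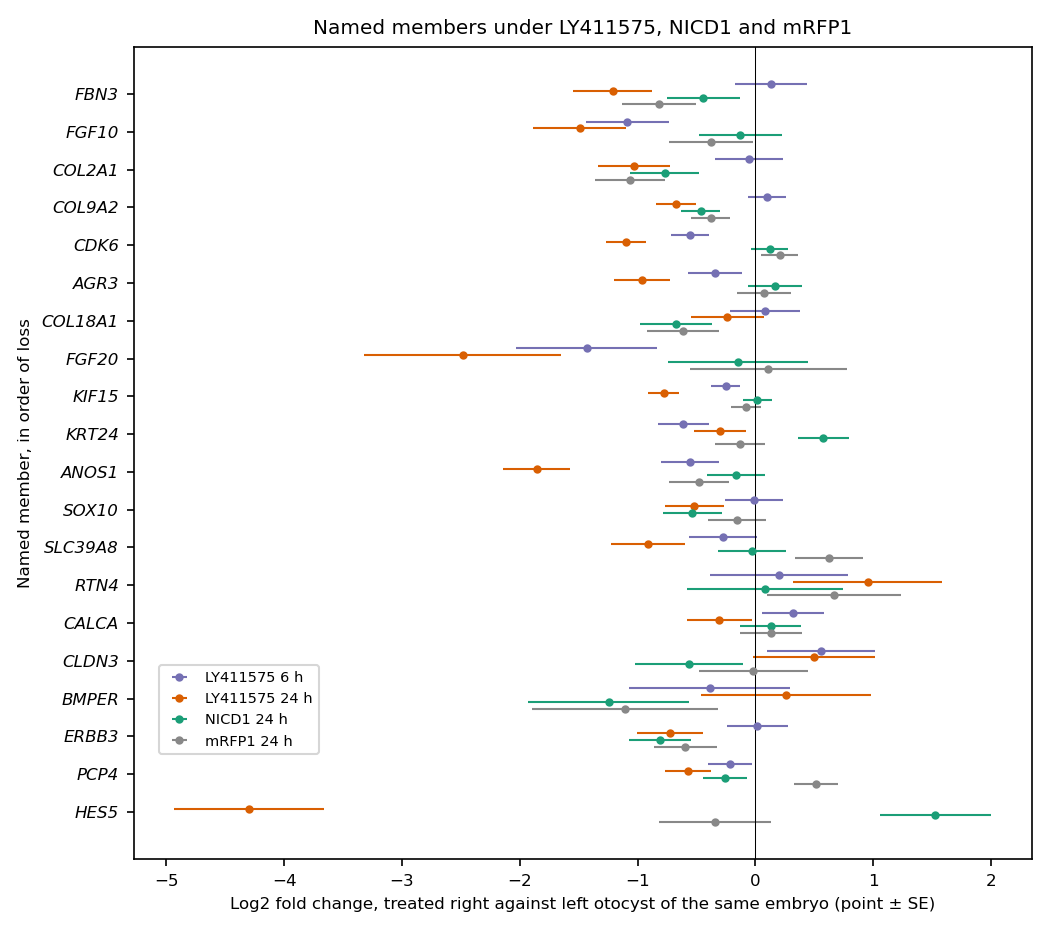
Log2 fold change ± SE (horizontal axis) of the treated right against the left otocyst of the same embryos, 3 pairs per point, for 20 named members in order of loss, under LY411575 for 6 h and 24 h, NICD1 for 24 h and mRFP1 for 24 h. BZW2 and the 6 h LY411575 value of HES5 are left out because a group had 0 or 3 counts; HES5 at 24 h of LY411575 (-4.30) lies farthest from 0.

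Embryos differed from each other in the members' level, and in the day 3 groups the same embryo was highest in both ears. Embryo 23 had the highest summed member TPM of that group in both ears, 8480 TPM on the left and 8607 TPM on the right, with 5920 and 6214 TPM in the other 2 right ears. It was the highest of 3 for 74 members on the left and 92 on the right, against 41.5% and 54.9% of transcripts with B of at least 5 TPM. Embryo 23 was thus also the most often highest over those transcripts, so this order is not particular to the members. COL2A1, COL18A1, FBN3 and ERBB3 had their highest mRFP1 group values in that embryo in both ears. Among the NICD1 embryos of 24 h, embryo 22 was the highest of 3 for 89 members on the left and 94 on the right, against 38.9% and 46.1% of those transcripts. It too was the most often highest over those transcripts. In the 6 h NICD1 embryos the ears differed. Embryo 15 was most often highest on the left (94 members, against 43.8%) and embryo 13 on the right (59 members, against 38.1%). Counts on the left come from values that the rule used. Embryo 33 was the highest of the 24 h cultures for 71 members in DMSO, against 27.7% of those transcripts. With the GSI it was highest for 61 members, close to the 42.7% of those transcripts. Mean fragments were also the shortest of their groups in both ears of embryos 22 and 23. They were 168 and 167 bases (left and right) for embryo 22 and 164 and 165 bases for embryo 23. Embryo 33 had the longest of the 24 h DMSO otocysts, at 219 bases, and the shortest with the GSI, at 205 bases. The part of fragment length in these differences between embryos was not tested.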

How the data were processed

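RNA of single chicken otocysts was sequenced as paired-end reads from SMART-Seq v4 and Nextera XT libraries, which do not mark strand. Tools and build in the submitters' processing notes are bcl2fastq, kallisto and GRCg6a, with no kallisto version given in the sources used here. For each otocyst the authors deposited a kallisto table with an estimated count and a TPM for each of 28756 transcripts. Deposited estimated counts are not normalised and split a read between all transcripts that it matches. In the deposited TPM the authors' quantification has already divided by effective length and library total. Levels are TPM as deposited, and tests used estimated counts rounded to whole numbers.

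The members and the gene lists were chosen with earlier results of these data known. Members were selected on the 15 left otocysts with a pseudocount of 1 TPM and B of at least 5 TPM. Symbols came from the study's supplementary tables, which pair 808 transcripts with a gene. Their fold changes and q-values, the study's own findings, were not used. All members with a symbol are named, with full values for 12 of them, plus the 2 members without a symbol that have the largest loss. The 12, and 2 further identifiers, were picked after their values were seen.

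edgeR 4.0.16 (R 4.3.3) was used with filterByExpr at a minimum count of 10, TMM scaling, glmQLFit (robust) and glmQLFTest, with Benjamini-Hochberg adjustment over all transcripts of a fit. A transcript is called at an adjusted p below 0.05. The 15 right otocysts were fitted alone, with 20326 transcripts tested. All 150 members passed the filter, which their minimum level makes likely. Treated and left otocysts were compared in a fit of 30 libraries and 21637 transcripts with a term per embryo, as both ears come from the same embryo. Deviations of paired ears from their group means correlated by 0.02106 to 0.3425, positively in 15 of 15 pairs. Standard errors were taken as |log2 fold change| over √F. No pair of libraries within a group came near sampling noise (lowest chi-square per degree of freedom 14.81), so each was counted as 1 sample. Floors and counting intervals (95%, floor of 3 counts) cover counting error only. The fits were run on simulated counts, which had no differences between embryos and less spread than these data. The common dispersion that edgeR estimated here was 0.366 for the right otocysts and 0.240 for the fit with embryo. That run therefore says nothing about how many calls here are false. Alternatives were size factors by median of ratios, no filter, DESeq2 1.42.0, limma-voom (limma 3.58.1), a fit without the embryo term, leaving out each embryo, and other pseudocounts and minimum levels in the selection.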

Additional observations from a re-analysis of the deposited data

Results flagged for a closer look

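3 members without a symbol in the study's tables differed between treatments in the fit with a term per embryo, and were singled out after their values were seen. The left otocysts of that fit chose the members, so the values below are a description. For the GSI differences, the rule asked for low 24 h and high 6 h levels in DMSO, which by itself moves the GSI effect at 24 h up against that at 6 h. The member of rank 5 had a GSI effect at 24 h that differed from that at 6 h by 14.205 on the log2 scale (edgeR adjusted p = 0.0493). It had 0 counts in the 24 h DMSO otocysts and 402 in the GSI otocysts, at least 138-fold more against a floor of 3 counts over the group, and this fitted difference depends on the prior count. Single GSI otocysts held 27 to 232 of these counts, and this member shared reads in 28 libraries. The call was lost in 7 alternatives, among them leaving out any of embryos 1, 3, 5 and 32 (adjusted p 0.102 to 0.132). The member of rank 63 had a GSI effect that differed by -7.1854 between the times (adjusted p = 0.0035). It was at 0 counts in the 24 h GSI otocysts against 81 in DMSO, at least 26.2-fold lower, and at 11.3 to 13.2 TPM in the 6 h GSI otocysts. The difference was not called with limma-voom (adjusted p = 0.0938), and the member of rank 63 shared reads in 27 libraries. ENSGALT00000092788.1, of rank 25, was called neither for NICD1 nor for mRFP1 at 24 h taken alone. It was higher with NICD1 in 3 of 3 embryos and lower with mRFP1 in 3 of 3. Only the difference between these effects was called, at 3.53284 (edgeR adjusted p = 0.0174). That call was lost without embryo 21, 22, 4 or 24 (adjusted p 0.0973 to 0.225) and without the embryo term. ENSGALT00000092788.1 shared reads in all 30 libraries, and whether reads of the NICD1 plasmid were counted in it was not tested.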

How the results depend on the processing

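Of the counts of members called, run again under each alternative, 157 stayed within 1.5 times and 37 did not. The cause was not tested. Members called lower at 24 h than at 6 h of GSI culture in right otocysts were 91, with 80 to 91 on leaving out an embryo and 105 in a fit of 30 libraries without the replicate block; called higher were 0, with 1 in DESeq2 and 0 to 1 on leaving out an embryo. Against day 3 in ovo 116 were called lower, with 104 to 112 and 121 without the block. For 6 h culture against in ovo, 14 became 6 to 10 on leaving out an embryo, and the 1 called higher became 2 in DESeq2 and 0 with limma-voom, without the block and on leaving out any embryo (0 to 0). After 6 h of GSI, 3 called lower became 9 in DESeq2, 1 with limma-voom and 2 to 4 on leaving out an embryo. After 24 h of GSI, 11 called lower became 38 in DESeq2, 3 with limma-voom, 6 without the replicate block and 4 to 22 on leaving out an embryo, and 3 called higher became 11 in DESeq2, 0 with limma-voom and 0 to 10. From 0 for NICD1 after 6 h, DESeq2 called 1 lower and 1 higher and limma-voom 1 higher. From 0 for NICD1 after 24 h, 1 was called higher with median-of-ratios size factors, DESeq2 and limma-voom, and 0 to 1 on leaving out an embryo. Control EP gave 4 called lower in DESeq2. The median loss was 2.05 with a pseudocount of 0.1 TPM and 1.34 with 5 TPM, beside 1.78. Of the 150 members 132 and 105 were selected again with these pseudocounts, 124 and 115 with a minimum B of 1 and 10 TPM, and 112 to 145 on leaving out an embryo, fewest without embryo 34. For single named transcripts, 785 repeats of 64 calls kept the direction, 704 stayed called and 81 did not pass. Low levels limit BZW2, FGF20 and HES5, whose groups held 0 to 6 counts.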
